A study of Danio rerio with 2 samples.

Results

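The genes described here are those that had next to no reads in wild-type (WT) zebrafish embryos but were read in embryos lacking ezh2. They are the genes of the authors' table with a WT read count of 3 or less, leaving out loci annotated as cathepsin, membrane-spanning 4-domains or hsp70.1 genes. Of 1287 genes in that table, 73 had such a WT count, 5 belonged to the left-out loci, and 68 (5.28%) remained. Messenger RNA had been sequenced from whole embryos of the AB background at 28 hours post fertilization, with 1 library from ezh2-/- embryos and 1 from WT embryos. The labels name neither the ezh2 allele nor the number of embryos in a library. The transcript of ezh2 is not analysed here, so it gives no check on which library is mutant. Since the WT count chose the members, that their mutant count is the higher value is not a finding. With 1 library per genotype, nothing could be tested and no spread between replicates exists, so every difference below compares 2 libraries. In whole embryos, more RNA per cell and more cells of an expressing type cannot be told apart.

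The enzyme Ezh2 carries out the methylation of histone H3 by Polycomb repressive complex 2, a mark that helps to keep genes silent outside the tissues or times of their use. Embryos of this age have no working adaptive immunity and rely on innate defence, in which interferon-stimulated genes and cytoplasmic sensors of microbes take part. Many zebrafish immune families, among them the NACHT domain proteins and the NITR receptors, exist as large sets of similar genes.

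The members were weakly counted in both libraries. Together they held 3257 counts in the mutant library (exact Poisson interval 3146 to 3371) and 95 counts in the WT library (76.9 to 116), and 21 of the 68 had no WT count. Such intervals are at 95% and cover counting error alone. They take no account of the selection of members, and the limit on the WT count held the WT sum low. Mutant counts of single members ran from 21 to 833 with a median of 33, and 11 members reached 50. On the per-length scale of FPKM, the authors' fragment count scaled by transcript length and by sequencing depth, the mutant level ran from 0.123 to 46.8 with a median of 1.18, and 31 members lay under 1 FPKM. No WT level exceeded 0.250 FPKM. These levels lie low in the table: the other 803 genes that were higher in the mutant library had a median mutant level of 4.45 FPKM.

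**Figure D1:**
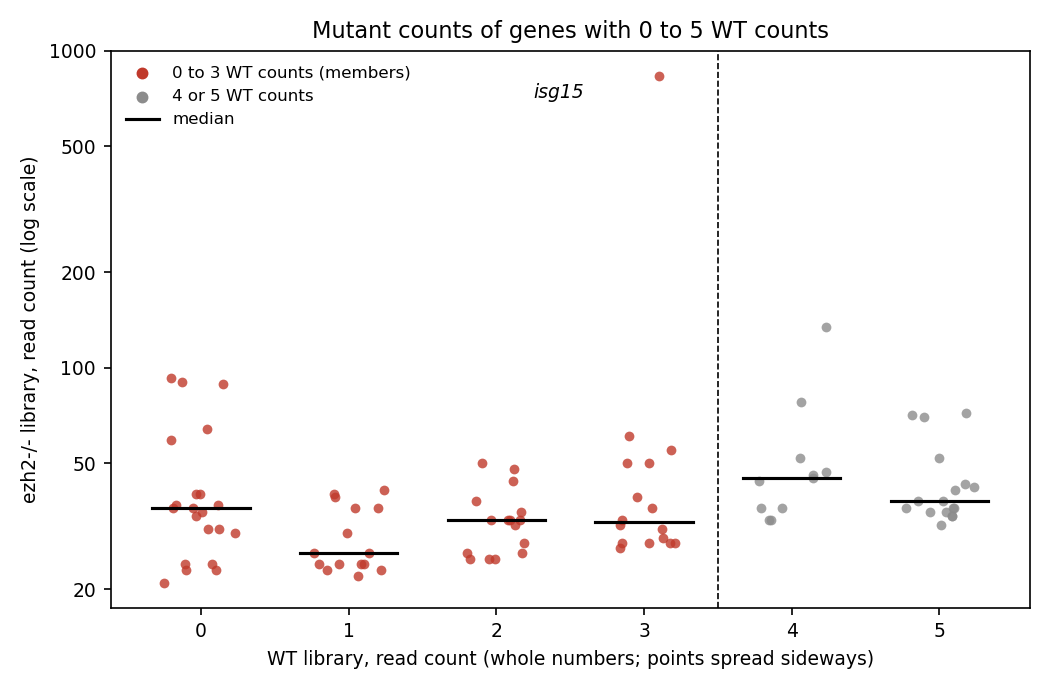
Read count in the ezh2-/- library (log scale) of each gene with 0 to 5 counts in the WT library; red points are the 68 members, grey points the 28 genes just outside the WT limit, and black bars medians. Members lie between 21 and 93 mutant counts apart from isg15 at 833, and the genes with 4 or 5 WT counts lie between 32 and 134.

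Only genes past the authors' own threshold are listed, so members with still lower mutant counts could not appear. The largest FDR among the members in the authors' deposited table was 0.00955. The smallest mutant count was 21 among members with 0 WT counts, 22 with 1, 25 with 2 and 27 with 3. Just outside the limit, 11 genes with 4 WT counts had 33 to 134 mutant counts, and 17 genes with 5 WT counts had 32 to 72. No locus was left out of these genes, and the one with 72 was a membrane-spanning 4-domains gene (gene12892). The median mutant count was 36 among the 21 members at 0 WT counts and 32.5 among the 16 members at 3 WT counts, with isg15 among those at 3. Under the exchanged rule, 5 listed genes had 3 or fewer counts in the mutant library, and none of those had 0.

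A fold printed for a single gene is the ratio of its counts, mutant over WT, times a factor of 1.01 that sets well-counted genes to the authors' fold changes. The log2 fold change, from which genes were counted across the table, had 0.5 added to each count. By it, 4-fold was reached by all 68 members, against 22.5% of the table. It put 67 members at 8-fold or more, against 9.48% of the table, and 39 members at 16-fold or more, against 4.04%. These counts are fixed in large part by the limit on the WT count, and at so few WT counts they depend on the 0.5. Of the 47 members with a WT count, 18 reached 16-fold by the log2 fold change and 30 by the plain ratio. With the plain ratio, and a floor of 3 WT counts for the members at 0, 68 members reached 4-fold, 65 reached 8-fold and 35 reached 16-fold. For 45 members the exact 95% interval of the ratio lay wholly at or above 4-fold, against 9.4% of the table. The median log2 fold change was 4.10, against 1.31 over all listed genes, and 3.75 with the members at 0 WT counts at that floor. In the authors' deposited table the members' median log2 fold change was 3.47, and that of all listed genes 1.30. Against the floor, the folds of the members at 0 WT counts ran from 7.07 to 31.3, with counting error of the mutant count not included.

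The member with the most reads was the interferon-stimulated gene isg15, which encodes a small ubiquitin-like protein that is attached to other proteins during antiviral responses. The table lists it as si:rp71-1c23.2 (gene13323) with ubiquitin as its closest Swiss-Prot entry, and RefSeq (GRCz12tu) gives that clone name as a synonym of isg15. Ubiquitin-like genes resemble each other, so reads of similar copies may be included. It had 833 counts in the mutant library against 3 in the WT library, a 280.4-fold difference (95.6 to 1363), and levels of 46.8 and 0.174 FPKM in those libraries. It alone held 25.6% of the members' mutant counts, and its log2 fold change of 7.91 was the highest of any member. The mutant library held 2424 member counts without it.

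Genes with interferon in their product name had from 0 to 137 WT counts. An interferon-induced protein 44 gene (gene199), whose mammalian relatives respond to type I interferon, had 37 mutant counts and 0 WT counts. Against the floor of 3 WT counts it was 12.5-fold higher. The exact interval of its count ratio, a separate value with no floor, ran from 9.63. A gene for an interferon-induced protein with tetratricopeptide repeats (gene23923), of a family that binds viral RNA in mammals, had 24 mutant counts and 0 WT counts. Against the floor this gene was 8.08-fold higher, and the exact interval of its count ratio, with no floor, ran from 6.08. Its listed relative, the repeat protein 5-like gene gene22792, was already read in WT embryos, with 98 mutant and 35 WT counts. Counting isg15, 12 listed genes answered to this description, a grouping made after their values were seen. The 3 that were members were higher by the rule that chose them. The other 9 were also higher in the mutant library, where 68.1% of all listed genes were higher.

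Further members belong to families tied to antiviral defence in mammals, a grouping also made after their values were seen. A dispanin subfamily A member 2b-like gene (gene27914) had 31 mutant counts and 0 WT counts; dispanins include the interferon-induced transmembrane proteins that block virus entry. The sterile alpha motif domain-containing protein 9-like gene gene3316, related to a mammalian restriction factor, had 30 mutant counts and 0 WT counts. The gene gene20833 is named poly [ADP-ribose] polymerase 14, after an enzyme that attaches ADP-ribose to proteins. Its closest Swiss-Prot entry was the O-acetyl-ADP-ribose deacetylase MACROD2. The counts of gene20833 were 28 in the mutant and 3 in the WT library, 9.43-fold apart (2.91 to 48.5). All are small counts. The mutant levels were 1.99 FPKM for the dispanin gene, 0.342 FPKM for gene3316 and 0.224 FPKM for the polymerase gene, each under the median of 4.45 FPKM of the other higher genes.

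By the words of their annotation, 7 members (10.3%) fell in an immune and defence class, against 58 of the 803 other higher genes (7.22%) and 12 of the 411 lower genes (2.92%). Beside both interferon-induced genes above, the class held a pair of NACHT, LRR and PYD genes, an immune-type receptor, a chemokine receptor and batf. NACHT, LRR and PYD proteins are cytoplasmic sensors that assemble into inflammasomes in mammals. The protein 3-like gene gene28339 had 40 mutant counts and 0 WT counts, 13.5-fold higher against the floor. The exact interval of its count ratio, with no floor, ran from 10.5. The protein 12 gene gene12541 had 33 mutant and 2 WT counts, a 16.7-fold difference (4.26 to 143). The closest Swiss-Prot entry was the stonefish protein Neoverrucotoxin subunit beta for gene28339 and Protein NLRC5 for gene12541. Since the family has many near-identical copies, how the reads were shared out among them is uncertain. Among 6 leukocyte markers, only lyz (gene36993), which encodes a lysozyme of myeloid cells, was matched in the table by RefSeq symbol. It was lower, with 310 mutant and 777 WT counts. Whether leukocyte number bears on the immune members was not tested.

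The receptors of this class had few reads but differed in level. The chemokine XC receptor 1-like gene gene36407, by that name of a family that guides leukocytes, had 55 mutant and 3 WT counts, an 18.5-fold difference (6.01 to 92.5). Its closest Swiss-Prot entry was a type-1 angiotensin II receptor. The NITR gene gene16483, a fish-specific immune-type receptor of the immunoglobulin superfamily listed with the family number 3d, had 26 mutant counts and 1 WT count, 26.3-fold apart (4.31 to 1077). With fewer reads, the immune-type receptor had the higher mutant level per length, 5.29 FPKM against 2.75 FPKM for the chemokine receptor. The transcription factor gene batf (gene16760), which acts in mammalian lymphocytes and entered the class through a GO term on cytokine production, had 39 mutant and 3 WT counts, a 13.1-fold difference (4.17 to 66.4).

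Other members with known parts in inflammation carried no word of the immune class. Hepcidin, a liver peptide that limits iron release and has antibacterial activity, is encoded by gene28019, which had 38 mutant and 2 WT counts, a 19.2-fold difference (4.96 to 164). Its mutant level of 4.73 FPKM was the seventh highest of the members, as the plot of FPKM by gene shows. The newly assembled locus Zebrafish_newGene_3282, matched to the adapter protein CIKS, which relays interleukin signals in mammals, had 33 mutant and 2 WT counts. A urokinase plasminogen activator surface receptor-like gene (gene32956) had 22 mutant counts and 1 WT count.

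**Figure D2:**
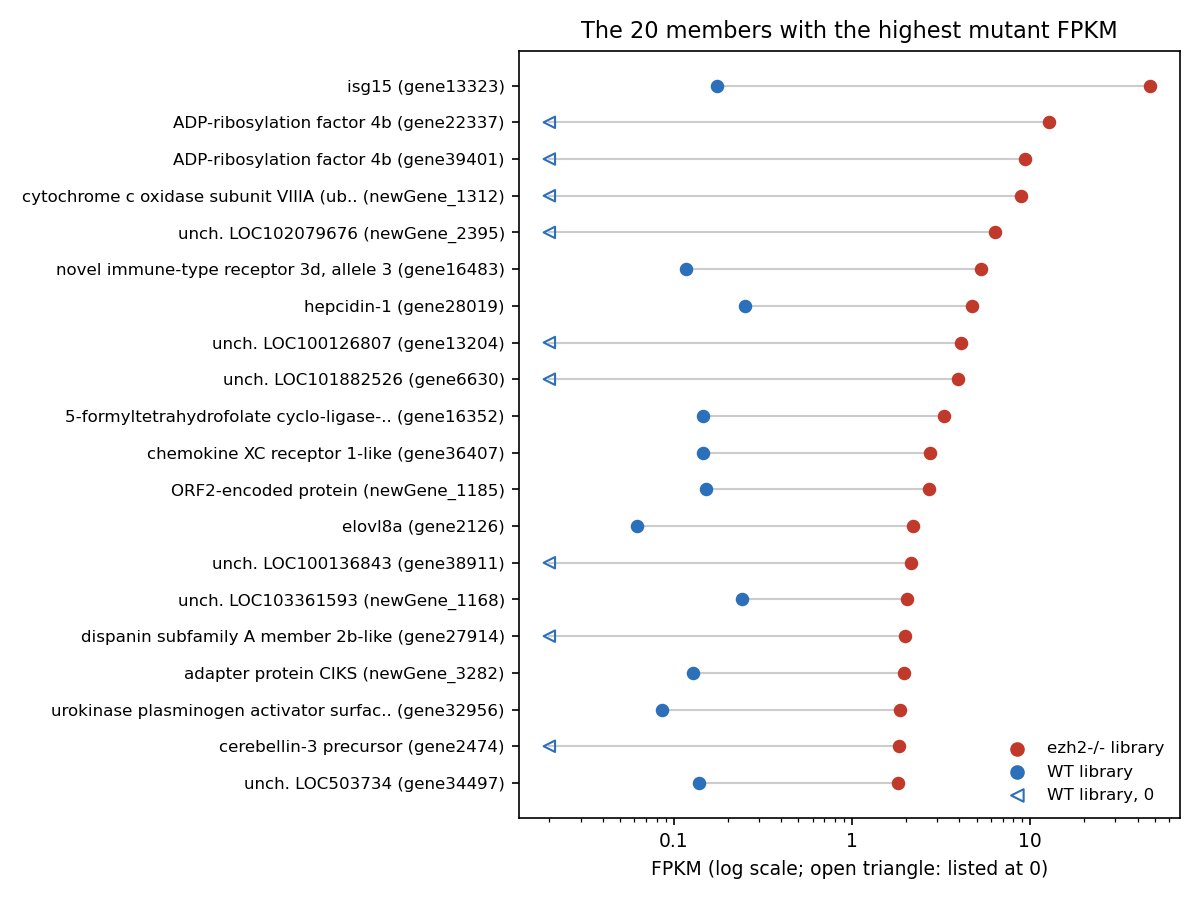
FPKM in the ezh2-/- library (red) and the WT library (blue) of the 20 members with the highest mutant level, on a log axis; open triangles mark genes listed at 0 in WT. The mutant level of isg15 is 46.8 FPKM, that of the next gene, an ADP-ribosylation factor 4b gene, 12.8 FPKM, and no WT level exceeds 0.250 FPKM.

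Signalling genes were the largest class with a shared function, with 9 members (13.2%), against 16.2% of the other higher genes. A pair of loci carried the product name ADP-ribosylation factor 4b, a small GTPase that directs vesicle traffic at the Golgi apparatus. They had 90 (gene22337) and 36 (gene39401) mutant counts and no WT counts. Against the floor they were 30.3-fold and 12.1-fold higher, and the exact intervals of their count ratios, with no floor, ran from 24.1 and 9.36. Their mutant levels of 12.8 and 9.40 FPKM were the highest after isg15. The closest Swiss-Prot entries of the pair differed, with ADP-ribosylation factor 1 for gene22337 and ADP-ribosylation factor 5 for gene39401. A further listed locus of this kind, the ADP-ribosylation factor 1-like gene gene22338, lay just outside the limit with 33 mutant and 4 WT counts. Reads from such similar loci cannot be assigned to one of them with certainty.

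A second pair of small GTPase genes shared a Swiss-Prot entry. They were rergla (gene5470), a ras-related and estrogen-regulated growth inhibitor-like gene of the Ras superfamily, and LOC100124619 (gene27526). The counts of rergla were 36 in the mutant library and 1 in the WT library, and those of the other were 35 in the mutant library and 2 in the WT library. Their folds of 36.4 (6.12 to 1476) and 17.7 (4.54 to 152) have intervals that overlap widely.

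Protein kinase genes of the PIM type formed another group. PIM kinases are serine/threonine kinases that promote survival of blood cells in mammals, and zebrafish carries many similar copies. Members whose closest Swiss-Prot entry was pim2 were gene28060, listed as aurora kinase-like, with 32 mutant and 2 WT counts, gene27712, with 28 mutant and 3 WT counts, and gene1841, with 24 mutant counts and 1 WT count. The other listed genes with that entry were higher. They were the pim-2-like gene gene27704, with 84 mutant and 22 WT counts, and the ppk6-like gene gene26327, with 412 mutant and 99 WT counts. The gene gene1905, which shares the product name pim-2-like with gene27712 but not that entry, was lower with 4 mutant and 33 WT counts.

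By name, a hormone and a receptor of one peptide family were both members. The relaxin gene rln1 (gene32800), listed as LOC100996239, had 25 mutant and 2 WT counts, and a relaxin-3 receptor 1-like gene (gene37507) had 33 mutant and 3 WT counts. The closest Swiss-Prot entry of gene37507 was a type-1 angiotensin II receptor. Whether that receptor binds that hormone in zebrafish cannot be read from the table. Follistatin-related protein 3 (gene34907), of a family of secreted proteins that bind activin, had 32 mutant and 3 WT counts. Its listed relative follistatin-A (gene13912) was far more abundant, with 1961 mutant and 626 WT counts.

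Enzymes and transport proteins were present in small numbers and came from unrelated pathways. In the metabolic class of 5 members, a cytochrome c oxidase subunit VIIIA locus, which encodes a part of the respiratory chain, had 36 mutant counts and 0 WT counts at 8.88 FPKM. A glycogen debranching enzyme gene (gene37123) had 40 mutant counts and 0 WT counts but only 0.451 FPKM. The methionine sulfoxide reductase gene msrab (gene28805), which repairs oxidised methionine, had 31 mutant counts and 0 WT counts. The lipase gene abhd6a (gene22322), which breaks down monoacylglycerols, had 31 mutant and 3 WT counts. Outside that class, elovl8a (gene2126), listed as uncharacterized and by its Swiss-Prot entry an elongase of very long chain fatty acids, had 36 mutant counts and 1 WT count.

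The transport class held 4 members at low levels. A piezo-type mechanosensitive channel gene (gene19234) had 26 mutant and 2 WT counts, and a voltage-dependent R-type calcium channel gene (gene1521) had 23 mutant counts and 1 WT count. Their mutant levels of 0.148 and 0.123 FPKM were the lowest of the members. The mitochondrial solute carrier gene slc25a47a (gene32726) had 29 mutant and 3 WT counts. The fourth, LOC100005318 (gene24895), annotated with lipid transport, had 24 mutant counts and 1 WT count.

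Proteases and their inhibitors, matrix and chromatin proteins were each represented by few members. The metalloprotease gene pappaa (gene14633), which encodes pappalysin-1, a protease that releases insulin-like growth factors from their binding proteins, had 48 mutant and 2 WT counts, a 24.2-fold difference (6.35 to 206). Peptidase inhibitor 15-A (gene36834) had 25 mutant and 2 WT counts. A histone H2B-type gene (gene38334) had 28 mutant and 3 WT counts; histone genes are near-identical copies, so its counts are uncertain. No member fell in the zinc finger and transcription factor class, which held 44 of the 803 other higher genes and 135 of the 411 lower genes; batf, a transcription factor, stands in the immune class. Its words did not catch the gene for protein Wiz (gene3628), a zinc finger chromatin factor in mammals, which had 50 mutant and 3 WT counts. A gene named cerebellin-3 (gene2474), after a family of secreted synaptic proteins, had 34 mutant counts and 0 WT counts. Its closest Swiss-Prot entry was Caprin-2. No member was caught by the words of the mobile-element class, which did not include ORF2. The locus Zebrafish_newGene_1185, named an ORF2-encoded protein, was placed among the uncharacterized genes. That no mobile-element gene was counted thus rests on the words used.

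The largest class was that of genes with an uncharacterized or clone-type product name that no other class took up, some of them with a Swiss-Prot, KOG or GO entry. It held 24 members (35.3%), against 82 of the 803 other higher genes (10.2%) and 25 of the 411 lower genes (6.08%). Such names were also more frequent in other genes with few WT counts. Whatever the class, 38.2% of the members had one, against 21.25% of the higher genes with 4 to 10 WT counts and 9.57% of those with over 200. The most counted after isg15, which stands in this class by its clone name, was LOC101882526 (gene6630), with 93 mutant counts and 0 WT counts. Its fold against the floor was 31.3, with counting error of the mutant count not included. LOC100136843 (gene38911), whose GO term is nucleic acid binding, had 64 mutant counts and 0 WT counts. LOC103911469 (gene17924) had 61 mutant and 3 WT counts, and LOC100126807 (gene13204) had 59 mutant counts and 0 WT counts. What these proteins do is not known from the table.

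RefSeq now gives symbols to some of the uncharacterized names. Beside isg15, elovl8a and rln1, these were tm4sf21a (gene13453), of the tetraspan transmembrane family, with 23 mutant counts and 1 WT count, and swsap1 (gene3654), whose mammalian relative acts in DNA recombination, with 25 mutant and 2 WT counts. In all 25 of the 68 members could be matched to a RefSeq gene by the number or clone name in their product name or by their KEGG hit.

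Among the members, 7 (10.3%) were loci that the authors had assembled anew, identified by their locus names, against 7 of the 803 other higher genes (0.872%) and 5 of the 411 lower genes (1.22%). Listed new loci thus numbered 20 in all, 1 of them left out here as a cathepsin gene. Zebrafish_newGene_2395, matched to an uncharacterized tilapia protein, had 89 mutant counts and 0 WT counts, on a par with the larger ADP-ribosylation factor gene, and 6.32 FPKM. Zebrafish_newGene_1312, the cytochrome c oxidase locus above, and Zebrafish_newGene_1950, matched to a Wiskott-Aldrich syndrome family member that promotes actin assembly, with 21 mutant counts, also had 0 WT counts. The remaining new loci had 1 to 3 WT counts. They were Zebrafish_newGene_1306, matched to mucin-2 and read 41 times in the mutant library, Zebrafish_newGene_1185 with 50 mutant counts, Zebrafish_newGene_3282 with 33 and the uncharacterized Zebrafish_newGene_1168 with 28. A newly assembled locus can be part of a known gene, so its counts need not be those of a separate gene. Which reads served for the assembly is not known here. If they came from these libraries, new loci with 0 WT counts could be listed only through mutant reads. Whether this bears on the share of new loci was not tested.

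Some members had a listed copy. After removal of isoform and -like endings, 8 members (11.8%) shared their product name with another listed gene, against 7.60% of the other higher genes and 8.52% of the lower genes. A Swiss-Prot entry was shared by 9 members (13.2%), against 23.3% of the other higher genes and 25.1% of the lower genes. No entry was there to share in 57.4% of the members, 28.8% of the other higher genes and 18.2% of the lower genes. The shares are over all genes of a set, so they do not show that members share entries less often. Of these 9 members, 5 shared no product name, giving 13 with a copy by either measure. The 14 copies that were not members comprised 12 higher and 2 lower genes, where 68.1% of all listed genes were higher. A shared Swiss-Prot entry shows similarity and need not mean a copy, as with follistatin-A (gene13912) and follistatin-related protein 3 (gene34907).

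Some copies stood close to the members in count and others far from them. Beside Zebrafish_newGene_2395, its copy Zebrafish_newGene_2387 had 52 mutant and 4 WT counts. Beside gene28339, the second NACHT, LRR and PYD protein 3-like gene gene28338 had 76 mutant and 7 WT counts. The dispanin copy gene27916, in contrast, was well read in both libraries, with 494 mutant and 199 WT counts. Mucin-2 copies likewise had 326 mutant and 101 WT counts (gene1049) and 194 mutant and 24 WT counts (gene37699). The copies of the NACHT, LRR and PYD protein 12 gene differed in direction, with 150 mutant and 46 WT counts in gene30338 but 24 mutant and 108 WT counts in gene4995.

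**Figure D3:**
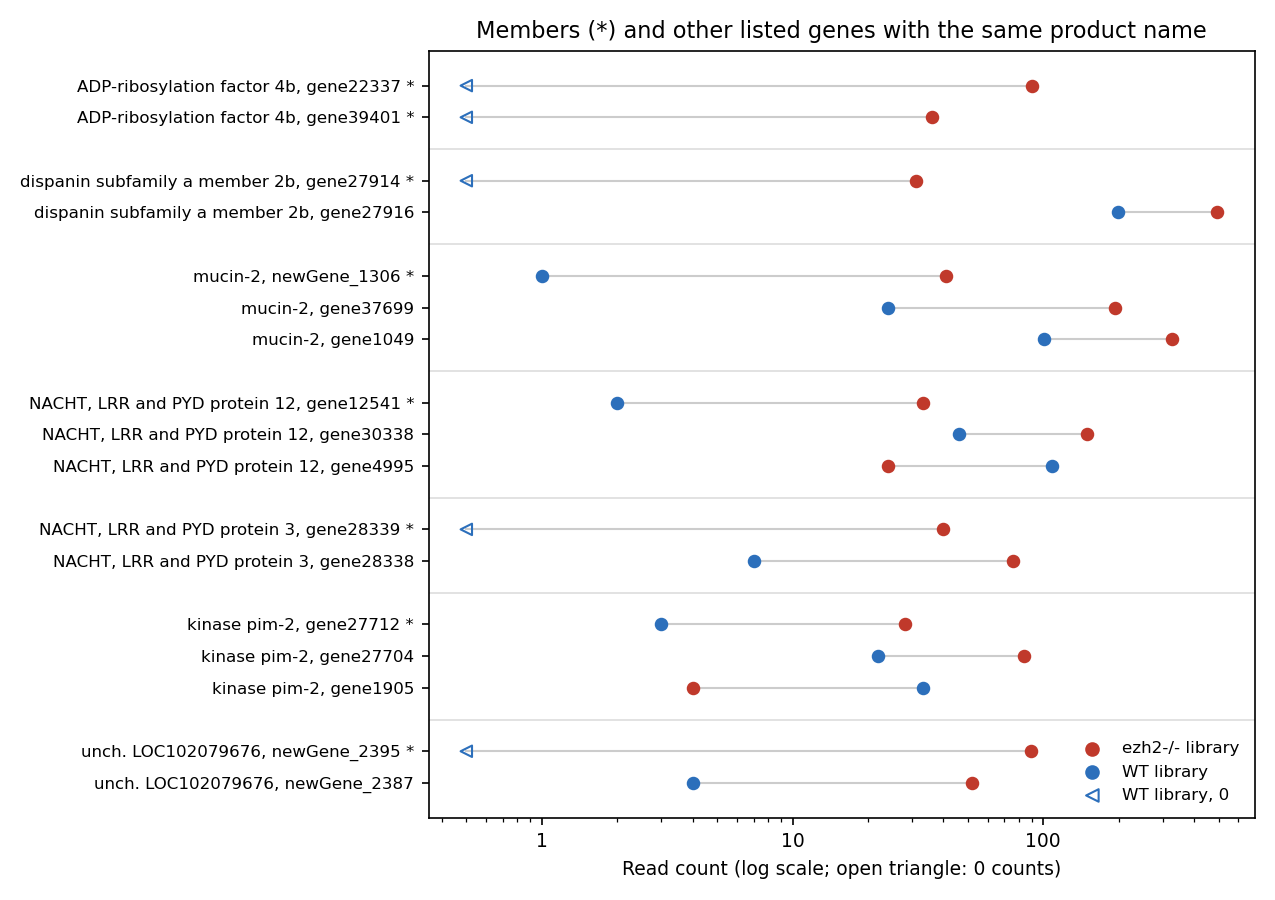
Read counts in the ezh2-/- library (red) and the WT library (blue), on a log axis, of the 8 members that share a product name with another listed gene (starred) and of the genes they share it with; open triangles mark 0 counts. Of the 9 copies that are not members, 7 have more mutant than WT counts, and gene4995 and gene1905 have fewer. Of all listed genes, 68.1% were higher in the mutant library.

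The authors' gene numbers run along the chromosomes. Of 82 pairs of listed genes numbered within 5 of each other and both found in RefSeq, 79 (96.3%) were on the same chromosome. Among the 61 numbered members, 23 had another listed gene within 5 numbers, and of these 32 neighbours 24 (75%) were higher and 8 lower. Over all listed genes 68.1% were higher, so the neighbours' split was near that of the table. Adjacent copies were the ADP-ribosylation factor genes gene22337 and gene22338, the NACHT, LRR and PYD genes gene28338 and gene28339, and, at a gap of 2, the dispanin genes gene27914 and gene27916. Unrelated neighbours went both ways. The glycogen debranching gene gene37123 stood beside a ferric-chelate reductase gene (gene37122) with 68 mutant and 9 WT counts. Beside the member gene17282, named for a histiocytoma-amplified sequence, the neural gene achaete-scute homolog 1b (gene17283) had 361 mutant and 1172 WT counts.

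KEGG, KOG, GO and Swiss-Prot entries were each missing more often among the members than among the higher genes of any WT count range above them. A KEGG hit was missing in 56 of 68 members (82.4%), against 67.5% of the higher genes with 4 to 10 WT counts and 42.0% of those with over 200. No Swiss-Prot entry was given for 57.4% of the members, against 28.8% of the other higher genes. For 22 members (32.4%) all of KEGG, KOG, GO and Swiss-Prot were empty, against 10.8% of the other higher genes and 8.52% of the lower genes. These are counts over genes selected on these libraries, and the difference between the sets was not tested.

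**Figure D4:**
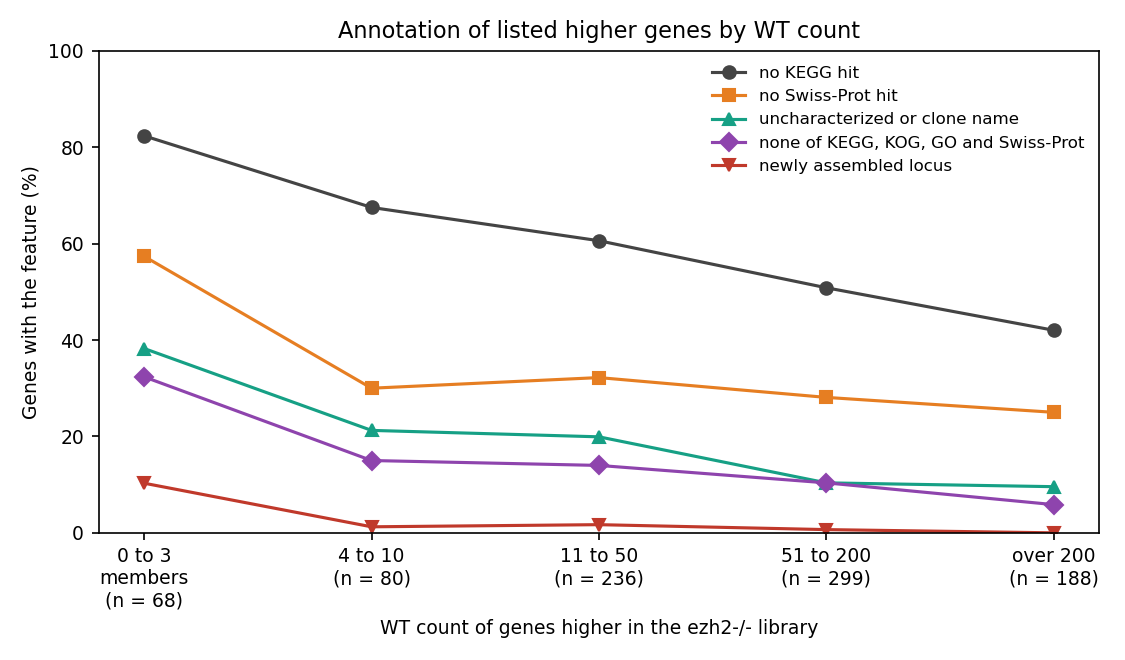
Percent of genes higher in the ezh2-/- library that lack an annotation or carry a feature, by their WT count; the leftmost points are the 68 members. The share with no KEGG hit is 82.4% among the members and 42.0% above 200 WT counts, and the share of newly assembled loci is 10.3% among the members and 0% above 200 WT counts.

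KOG classes, which group proteins by orthologous family, were given for 33 members, and 11 of these carried only the class of general function prediction. The class of signal transduction was the only one of 4 members, the 3 PIM-type kinases and gene16207, and was 1 of 2 classes of the calcium channel gene gene1521. Lipid metabolism was the class of 3 members. The class of protein modification, protein turnover and chaperones was the only one of 3 members, among them msrab, and was 1 of 2 classes of isg15. GO terms were given for 26 members. The most frequent, integral component of membrane, was held by 5 members (7.35%), against 13.3% of the other higher genes. Terms for GTP binding and for small GTPase mediated signal transduction were each held by 4 members, which were the ADP-ribosylation factor and ras-related growth inhibitor pairs. Among the other higher genes, 2.24% and 1.49% held these terms, against 5.88% of the members in each case.

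Counts and levels ranked the members differently. Of the 10 members with the highest mutant count, 5 were also among the 10 with the highest mutant FPKM. The mutant count behind each unit of FPKM grows with transcript length, and had a median of 26.9 among the members and 51.2 among the other higher genes. It was 3.83 for the ADP-ribosylation factor gene gene39401 and 187 for the calcium channel gene gene1521, so that similar counts stood for very different levels. In 3 of the 47 members with a WT count, the ratio of FPKM differed by over 1.5 times from the ratio of counts. For the immune-type receptor gene16483 the ratio of FPKM was 45.0 and that of counts 26.3. For rln1 the ratio of FPKM was 6.50 and that of counts 12.6, and for slc25a47a the ratio of FPKM was 6.43 and that of counts 9.76.

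Facts of the whole table limit these values. Listed counts summed to 764775 in the mutant library and 799647 in the WT library. These sums cover only the genes that the authors had selected, so the depth of the libraries is unknown. The members held 0.426% of the listed mutant counts. A WT count of 0 to 3 says only that few reads were found at this depth. Of 58 marker genes for germ line, pancreas and gut, lens, muscle, red cells, leukocytes, epidermis and yolk or liver, 3 were matched in the table (cpa5, alas2 and lyz). All 3 were lower in the mutant library and none was a member. Markers were matched by RefSeq symbol, so listed marker genes without one went unmatched. A RefSeq match existed for 25 of the 68 members and 429 of the 803 other higher genes. A fast skeletal myosin heavy chain gene not on the marker list (gene34178, myhz1.1l by RefSeq) was higher, with 36 mutant and 5 WT counts.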

How the data were processed

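Poly(A) RNA was sequenced with the NEBNext Ultra kit, per the labels' protocols; this kit does not mark strand, so overlapping antisense genes cannot be told apart. The submitters' processing notes name GRCz10, Bowtie 0.12.2 and Cufflinks without their roles. Per the file headers, the authors deposited raw read counts per gene, FPKM values scaled by the authors, an FDR (an adjusted p-value) and a log2 fold change, for genes they had selected. The tool that counted the reads is not named there (not given in the sources used here).

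Library columns were matched by the code in the sample title. The log2 fold change was log2((mutant count + 0.5)/(WT count + 0.5)) plus 0.0144, the median offset of the authors' log2 fold changes from the log2 count ratios over the 391 genes whose counts reached 200 in each library. Ratios of counts carry the same scale, a factor of 1.01, and 95% exact (Clopper-Pearson) intervals. Intervals cover counting error alone. They may be too narrow even for that, because PCR copies of a molecule could not be told from separate molecules. The intervals also take no account of the choice of members by a low WT count and by the authors' threshold. Their coverage for members need not be 95%. Folds against the floor include no counting error of the mutant count. Left-out loci were recognised from the table's annotation and from RefSeq symbols and synonyms (assembly GRCz12tu, used for names and chromosomes). Neighbours were taken from the authors' gene numbers. In 4 members the product name stood in the neighbouring column and was read from there. Classes were assigned by words in the product name, then in Swiss-Prot, KOG and GO text. The rule for named genes covered members with 0 WT counts, the 10 highest mutant counts and levels, up to 3 per class, shared product names and new loci, 43 members in all; the other members named were chosen after their values were seen, to complete a group. Members and lists were chosen with earlier results of these data known. With 1 library per group no test was run. Calculations used Python 3.11.15, numpy 2.4.6, pandas 2.3.3 and scipy 1.17.1. The log2 fold change and the exact interval were tested on counts simulated around the mean of both libraries. WT counts as low as those of the members were thus rarely simulated, and the floor was not tested.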

Additional observations from a re-analysis of the deposited data

How the results depend on the processing

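The 68 members became 36 with a WT limit of 1 count, 95 with a limit of 5, 78 with a WT FPKM under 0.1, 73 with no locus left out and 70 with left-out loci recognised from the table alone, an alternative chosen after seeing the data. All 68 remained at least 4-fold higher with 5 counts added, with no scale, with the scale of the FPKM and, in an alternative also chosen after seeing the data, by the plain ratio of counts; by the lower end of the exact interval 45 did. The median log2 fold change of 4.10 was 3.39 and 2.51 with 2 and 5 counts added, 2.92 and 1.02 with 0.1 and 1 added to FPKM, and 6.91 over members with at least 50 mutant counts. Without isg15 the summed mutant count was 2424. By product name alone, proteases and inhibitors held 1 member in place of 2, since pappalysin-1 entered through its GO term, and each other class changed by at most 3 members. With product names equal as written, 5 members in place of 8 shared one. The log2 fold changes of the 43 genes named by the rule ran from 2.06 to 6.73 with 5 counts added and from 1.14 to 7.42 from FPKM with 0.1 added. That those from counts stayed positive was fixed by the selection, since members had at most 3 WT and at least 21 mutant counts. The numbers of members past 4-fold were likewise fixed in large part by the limit on the WT count. No paired analysis was possible because each group has 1 library. The depth of the libraries is unknown, so no share of a library can be attached to a WT count of 0.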

Other observations

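The 5 loci left out of the members had WT counts in the same range. A membrane-spanning 4-domains gene, listed as LOC798290 and given as ms4a17a.2 by RefSeq (gene12893), had 48 mutant counts and 0 WT counts. A newly assembled locus listed as LOC569326 (Zebrafish_newGene_2087), for which RefSeq gives ctsl as a synonym, had 38 mutant counts and 0 WT counts. The other 3 were recognised from the table itself: gene22783 had 137 mutant counts, gene12899 had 82, both with 0 WT counts, and gene3966 had 52 mutant and 2 WT counts.

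The 28 genes with 4 or 5 WT counts, from which no locus was left out, included further immune genes. That all 28 were higher in the mutant library follows from the authors' selection, since no listed gene that was lower had under 30 WT counts. A sialic acid-binding Ig-like lectin 12 gene (gene26530) had 78 mutant and 4 WT counts, an MHC class I-related gene (gene34464) 47 mutant and 4 WT counts, and a tripartite motif-containing protein 16-like gene (gene31536) 52 mutant and 5 WT counts. By RefSeq symbol, an uncharacterized gene (gene27116) is il11a, an interleukin gene, with 70 mutant and 5 WT counts. A slow myosin heavy chain 3 gene (gene37411), a muscle gene, had 71 mutant and 5 WT counts. These genes were chosen after their values were seen.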
